A study of Mus musculus with 13 samples.

Results

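Polycomb repressive complex 2 (PRC2) is the enzyme complex that methylates lysine 27 of histone H3, a mark of silent genes. The mRNAs of 10 of its subunits were examined in 13 small cell lung cancer tumours of the mouse. These genes were taken by name from a table of 54532 genes and cover the catalytic subunits (Ezh2, Ezh1), the core (Eed, Suz12, Rbbp4) and the accessory subunits of the complex forms PRC2.1 (Mtf2, Phf1, Phf19) and PRC2.2 (Jarid2, Aebp2). The tumours carried sgKdm6a RPP (n = 7), a guide RNA against the histone demethylase gene Kdm6a, or sgControl RPP (n = 6), a control guide. In both groups RPP guides had been used, an abbreviation the labels do not spell out and which in this tumour model stands for Rb1, Trp53 and Rbl2, in congenic BL6J mice carrying Cas9 behind a lox-flanked stop. None was treated, and all tumours were frozen at necropsy. Age, sex and Cre delivery are not stated in the labels. Y-linked genes were well detected in most sgControl tumours but only in replicate 3 of the sgKdm6a tumours. The groups may therefore differ in sex.

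PRC2 needs EZH2 or EZH1 as its catalytic subunit, with EED and SUZ12 holding the enzyme together, and KDM6A removes the methyl groups that PRC2 adds. Dividing cells mostly use EZH2, which is transcribed under E2F factors, while EZH1 is found in dividing and resting cells alike. E2F factors are held in check by the retinoblastoma proteins, which most small cell lung cancers lack, and EZH2 is known to be abundant in this tumour. PRC2.1 and PRC2.2 share the core and exclude each other's accessory subunits, which steer the enzyme to different chromatin sites. All values are mRNA levels, and neither protein nor histone methylation was measured.

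Because of the known link between EZH2 and E2F, promoter sequences were searched for an E2F motif. RefSeq windows (build GRCm38.p6) of 250 bases before to 50 bases after the transcript start were found for all 10 genes, 14 windows in all, and searched on both strands for an E2F octamer made of TTT, then any 2 letters out of C and G, then CGC. It occurred in 3 of the 14 windows (21.4%), against 744 of all 32851 windows (2.26%) and 3.69% of the windows of genes tested here. By gene, these were 3 of 10 (Ezh2, Suz12 and Phf19), against 704 of all 27025 genes (2.6%). The 3 windows are shown with the octamer in capitals, and Ezh1, which has none, is shown as the other catalytic subunit:
Ezh2, chr6:47594981-47595280, minus strand: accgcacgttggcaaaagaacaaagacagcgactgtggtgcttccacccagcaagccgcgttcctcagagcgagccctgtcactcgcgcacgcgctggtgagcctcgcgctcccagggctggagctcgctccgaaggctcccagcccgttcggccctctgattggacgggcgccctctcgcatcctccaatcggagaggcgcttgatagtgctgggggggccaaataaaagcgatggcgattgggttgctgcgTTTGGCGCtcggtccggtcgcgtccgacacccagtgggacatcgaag
Suz12, chr11:79992856-79993155, plus strand: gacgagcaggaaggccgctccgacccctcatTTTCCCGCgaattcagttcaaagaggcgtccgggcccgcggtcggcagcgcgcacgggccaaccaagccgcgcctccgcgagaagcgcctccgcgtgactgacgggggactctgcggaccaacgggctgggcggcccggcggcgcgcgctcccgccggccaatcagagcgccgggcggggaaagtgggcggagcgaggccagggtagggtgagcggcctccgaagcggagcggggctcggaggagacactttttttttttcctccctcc
Phf19, chr2:34913927-34914226, minus strand: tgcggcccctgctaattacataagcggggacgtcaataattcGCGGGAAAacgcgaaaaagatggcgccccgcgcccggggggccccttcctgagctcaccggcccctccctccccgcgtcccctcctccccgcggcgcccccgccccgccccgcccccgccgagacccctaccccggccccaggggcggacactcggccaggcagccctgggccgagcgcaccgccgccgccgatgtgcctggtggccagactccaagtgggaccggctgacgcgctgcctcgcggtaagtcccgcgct
Ezh1, chr11:101226414-101226713, minus strand: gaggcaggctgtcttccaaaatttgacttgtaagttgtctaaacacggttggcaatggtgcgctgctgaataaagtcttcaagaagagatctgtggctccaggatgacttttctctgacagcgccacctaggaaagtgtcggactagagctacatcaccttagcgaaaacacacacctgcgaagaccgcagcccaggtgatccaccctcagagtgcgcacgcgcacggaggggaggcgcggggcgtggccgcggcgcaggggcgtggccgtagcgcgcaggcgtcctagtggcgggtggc
Counted from the start, the octamer's first base lies at 3 in Ezh2, at -219 in Suz12 and, on the opposite strand, at -208 in Phf19. Such a match describes letters and does not show that a factor binds. The Phf19 window is the only one whose last 50 bases are not in a transcript of a second annotation, GENCODE. The start used for Phf19 thus rests on RefSeq alone.

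The libraries held 16835726 to 22910187 gene counts, at which 3 counts, taken as the detection limit, amount to 0.131 to 0.178 CPM (counts scaled to library size). That limit covers counting error only. CPM were scaled between libraries by TMM. Kdm6a mRNA was detected in all 13 tumours, with 42.7 to 91.3 CPM in sgKdm6a and 51.7 to 112 CPM in sgControl tumours (edgeR log2 fold change -0.14, SE 0.22). Small insertions or deletions left by Cas9 need not lower an mRNA, so this level does not check the guide. Kdm6a is X-linked, and reads of the Y-linked gene Uty were unevenly spread over the groups. sgControl replicate 4, the only sgControl tumour without Uty reads, had the 112 CPM, above every sgKdm6a tumour. sgKdm6a replicate 3, the only sgKdm6a tumour with Uty above 3 counts, had the 42.7 CPM, below every sgControl tumour. Kdm6a was not tested among tumours alike in Uty. Markers of neuroendocrine cells, the cell type of this tumour, were found in all tumours, with a summed level of 2246 to 15056 CPM in sgKdm6a and 2625 to 5483 CPM in sgControl tumours. Of the 7, 2 were higher in sgKdm6a tumours at the unadjusted edgeR threshold of 0.05 (3.18% of all genes tested were), and 1 without sgControl replicate 6. Whether any tumours are of the same animal is not stated. Among sgKdm6a tumours, replicates 1 and 2, 4 and 5, and 6 and 7 carry the same title number, so the p-values reflect a spread between tumours whose independence is not known.

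One library stood apart. sgControl replicate 6 had a mean of 8.52 log2 CPM over 5 lists of lung, stromal and macrophage markers, against 2.47 to 4.66 log2 CPM in sgKdm6a tumours and 4.19 to 4.85 log2 CPM in the other sgControl tumours. Its 18 proliferation genes averaged 6.80 log2 CPM, against 7.76 to 8.21 in sgKdm6a and 7.92 to 8.10 in the other sgControl tumours. The same library was the lowest of all 13 for 5 of the 10 subunits, Ezh2, Suz12, Rbbp4, Mtf2 and Phf19. In bulk tissue, fewer tumour cells and less RNA per cell cannot be told apart, and the fold changes, counts and ratios that this library moves most are also given without it.

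All 10 subunits passed the filter on low counts, so every one was tested. By edgeR's quasi-likelihood test with Benjamini-Hochberg adjustment, 0 of the 10 passed an adjusted p of 0.05, and of all 16575 genes tested 0% passed. At an unadjusted p under 0.05, 0 subunits were higher in sgKdm6a tumours, where 3.18% of all genes (527) were, and 0 were lower, where 6.97% (1156) were. Without sgControl replicate 6 the counts of subunits were again 0 and 0, while 463 of 16831 genes (2.75%) were higher and 469 (2.79%) lower. The groups did not separate for any subunit either, while 0.284% of all genes (47) had no overlap. DESeq2 called 65 genes, of which 0 were subunits. The log2 fold changes ran from -0.54 (Ezh1) to 0.24 (Ezh2), with 7 above and 3 below zero, a median of 0.07 and a median size of 0.17. Over all genes tested the median was -0.0017 and the median size 0.25.

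**Figure D1:**
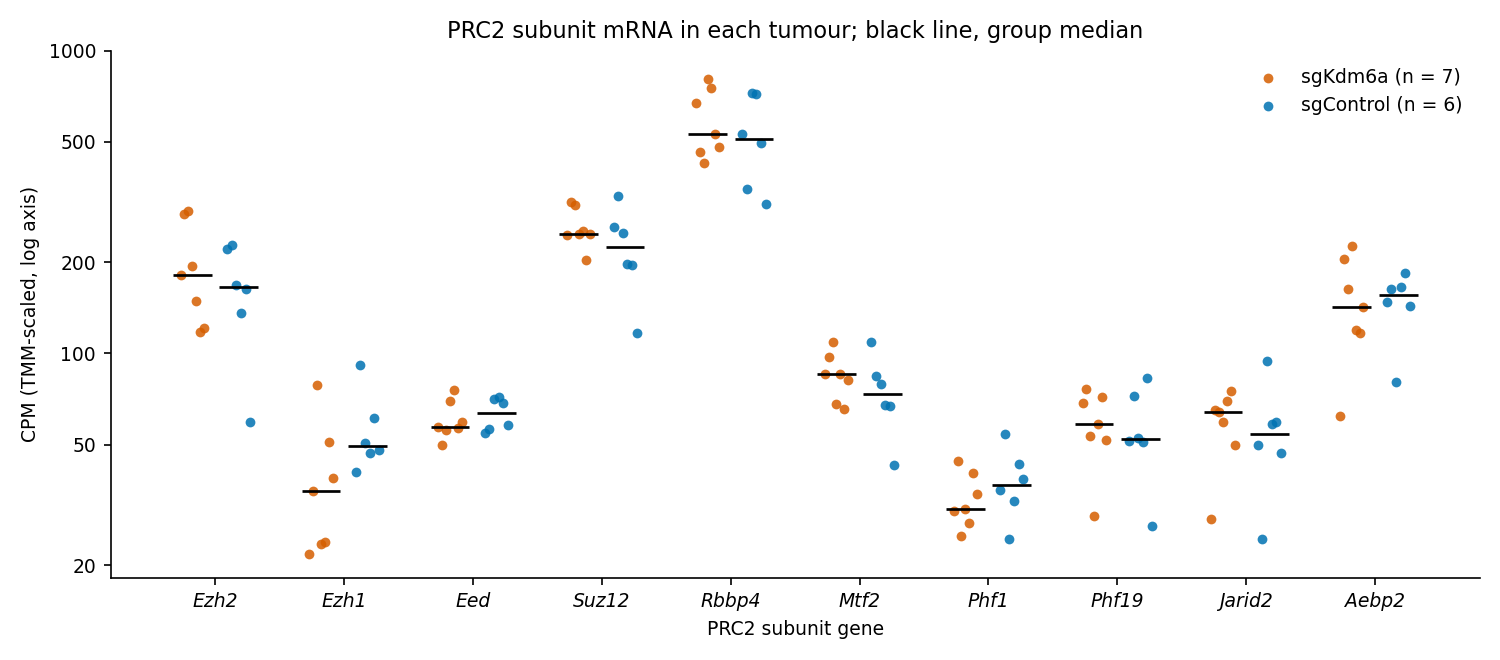
CPM of each PRC2 subunit gene on a log axis, 1 point per tumour, with the 7 sgKdm6a tumours left of the 6 sgControl tumours and a black line at each group's median. The groups overlap for every gene, and for Ezh1 5 of the 7 sgKdm6a points lie below all sgControl points.

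Compared per gene length as FPKM (fragments scaled to gene length and library size), the core subunits Rbbp4 and Suz12 were the most abundant. Rbbp4, a histone-binding protein that other chromatin complexes share, averaged 59.6 FPKM over the 13 tumours and Suz12 averaged 46.2 FPKM. Ezh2 followed at 25.0 FPKM, then Eed at 15.1 FPKM and the accessory subunits Aebp2 (13.97), Phf1 (13.6), Mtf2 (13.1) and Phf19 (10.6 FPKM). Ezh1 and Jarid2 were the least abundant at 5.90 and 5.49 FPKM. Eed, Aebp2, Phf1 and Mtf2 lay closer to each other than their spread between tumours, and so did Ezh1 and Jarid2.

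Positions are given in mm10 as deposited. Among the catalytic subunits, Ezh2 (ENSMUSG00000029687, chromosome 6, 47530139 to 47595341) was at 118 to 296 CPM in sgKdm6a tumours (median 182) and at 59.5 to 228 CPM in sgControl tumours (median 166). The lowest of all was sgControl replicate 6, and sgKdm6a replicates 2 and 3 lay above every sgControl tumour, with wide overlap in between. In FPKM, Ezh2 averaged 26.9 ± 10.4 in sgKdm6a (SD, n = 7) and 22.8 ± 8.70 in sgControl tumours (SD, n = 6). Its log2 fold change was 0.24 (SE 0.31, 95% interval -0.42 to 0.91, edgeR adjusted p = 0.842). Without sgControl replicate 6 the value was 0.07. With the mean of the 5 tissue lists as a term it was -0.17, and with the proliferation genes as a term -0.05. It was larger with the mean of the Y-linked genes as a term (0.57) and with the range of title numbers, described with the ratio of Ezh2 to Ezh1, as a term (0.41), and within the higher range it was 0.55.

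Ezh1 had the widest gap between the group estimates of the 10 subunits, with lower values in most sgKdm6a tumours. The gene (ENSMUSG00000006920, chromosome 11, 101191115 to 101226463) was at 21.7 to 78.7 CPM in sgKdm6a tumours (median 35.0) and at 40.6 to 91.6 CPM in sgControl tumours (median 49.4). In 5 of the 7 sgKdm6a tumours Ezh1 lay below every sgControl tumour, and the exceptions were sgKdm6a replicates 3 (78.7 CPM) and 6 (51.2 CPM). Of those below, replicates 1 and 2 share a title number, and so do 4 and 5. The mean was 4.86 ± 2.53 FPKM in sgKdm6a (SD, n = 7) and 7.10 ± 2.33 FPKM in sgControl tumours (SD, n = 6). The estimate for Ezh1 was a log2 fold change of -0.54 (SE 0.31, 95% interval -1.21 to 0.13, edgeR adjusted p = 0.598), which did not pass the threshold. Without sgKdm6a replicate 3 it was -0.80 (edgeR adjusted p = 0.484, below 0.05 only before adjustment), and without sgControl replicate 2, the highest sgControl tumour, it was -0.34. With the tissue term it was -0.92 (edgeR adjusted p = 0.628, below 0.05 only before adjustment), and with the proliferation genes as a term -0.54. It was -0.40 with counts summed by title number, and -1.10 and -0.28 within the lower and the higher range of title numbers. The lower range holds a single sgKdm6a title number, that of replicates 1 and 2. With the mean of the Y-linked genes as a term it was -0.10. Reads of the Y-linked gene Uty were above 3 counts in sgKdm6a replicate 3 alone of the 7 sgKdm6a tumours and in 5 of the 6 sgControl tumours, so that term largely follows the genotype.

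The ratio of Ezh2 to Ezh1 compares the mRNA levels of the catalytic subunits in bulk tumour tissue. Ezh2 exceeded Ezh1 in all 13 tumours. In the sgKdm6a tumours the ratio of FPKM was 9.33, 9.21, 4.18, 9.22, 7.004, 2.56 and 3.48 in replicates 1 to 7. In the sgControl tumours it was 6.08, 2.77, 3.69, 3.23, 2.97 and 1.38 in replicates 1 to 6. Replicates 1, 2, 4 and 5 of sgKdm6a lay above every sgControl tumour, and replicates 3, 6 and 7 were within the sgControl range. Of those above, replicates 1 and 2 share a title number, and so do 4 and 5. These tumours had at most 1 count of the Y-linked gene Uty, as did sgKdm6a replicates 6 and 7 and sgControl replicate 4. Ezh1 made up 15.9 ± 7.36% of the summed FPKM of both genes in sgKdm6a (SD, n = 7) and 25.5 ± 9.24% in sgControl tumours (SD, n = 6). On the log2 scale the ratio averaged 2.52 ± 0.77 in sgKdm6a and 1.61 ± 0.69 in sgControl tumours.

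The difference of 0.91 had a two-sided p of 0.0455 in the exact permutation test over all 1716 splits of the tumours, where the smallest possible p is 0.00117. The exact p passed 0.05 narrowly and was above it after leaving out any of 9 of the 13 tumours. Leaving out sgKdm6a replicates 1, 2, 4 or 5 gave differences of 0.79, 0.80, 0.80 and 0.86 (exact p = 0.0844, 0.0844, 0.0844 and 0.0736). Leaving out sgControl replicates 2, 3, 4, 5 or 6 gave 0.88, 0.96, 0.93, 0.90 and 0.68 (exact p = 0.0758, 0.0581, 0.0657, 0.0682 and 0.0985). With tumours of a shared title number averaged, 4 sgKdm6a numbers stood against 6 sgControl numbers, and the difference was 0.85 (exact permutation p = 0.0857). The titles fall into a lower and a higher range of numbers, whose meaning the labels do not give. Within the lower range the difference was 1.23 (exact permutation p = 0.200, the smallest possible with 2 against 3 tumours), and within the higher range 1.01 (exact permutation p = 0.143, 5 against 3 tumours). The sgKdm6a tumours of the lower range, replicates 1 and 2, share a single title number. In the higher range sgKdm6a replicates 4 and 5 share a number, and so do 6 and 7.

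The balance also moved with the proliferation genes. Over the 10 title numbers, the log2 ratio of Ezh2 to Ezh1 correlated with the mean log2 CPM of the 18 proliferation genes at Pearson's r = 0.75 (permutation p = 0.0014, Benjamini-Hochberg p = 0.0028 over 2 relations) and Spearman's rho = 0.78 (permutation p = 0.0111, adjusted 0.0222). Without the 2 numbers farthest from the median, one of them sgControl replicate 6, r was 0.70 (exact permutation p = 0.031, n = 8). Within the higher range of numbers r was 0.85 (exact permutation p = 0.00556, n = 6), and within sgControl it was 0.83 (exact permutation p = 0.142, n = 6). Both subsets hold sgControl replicate 6, without which r was 0.79 within the higher range and 0.25 within sgControl (n = 5 each, too few for a test), and 0.71 over the 9 other numbers. The lower range and the sgKdm6a group hold 4 numbers each, too few for a value. Against the tissue lists r was -0.60 (permutation p = 0.0759 before and after adjustment) and rho -0.45 (permutation p = 0.189), and without the 2 farthest numbers r was -0.17 (exact permutation p = 0.673, n = 8). The parts of proliferation and of the unevenly spread Y-linked genes in the difference between the genotypes were not tested for the ratio.

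**Figure D2:**
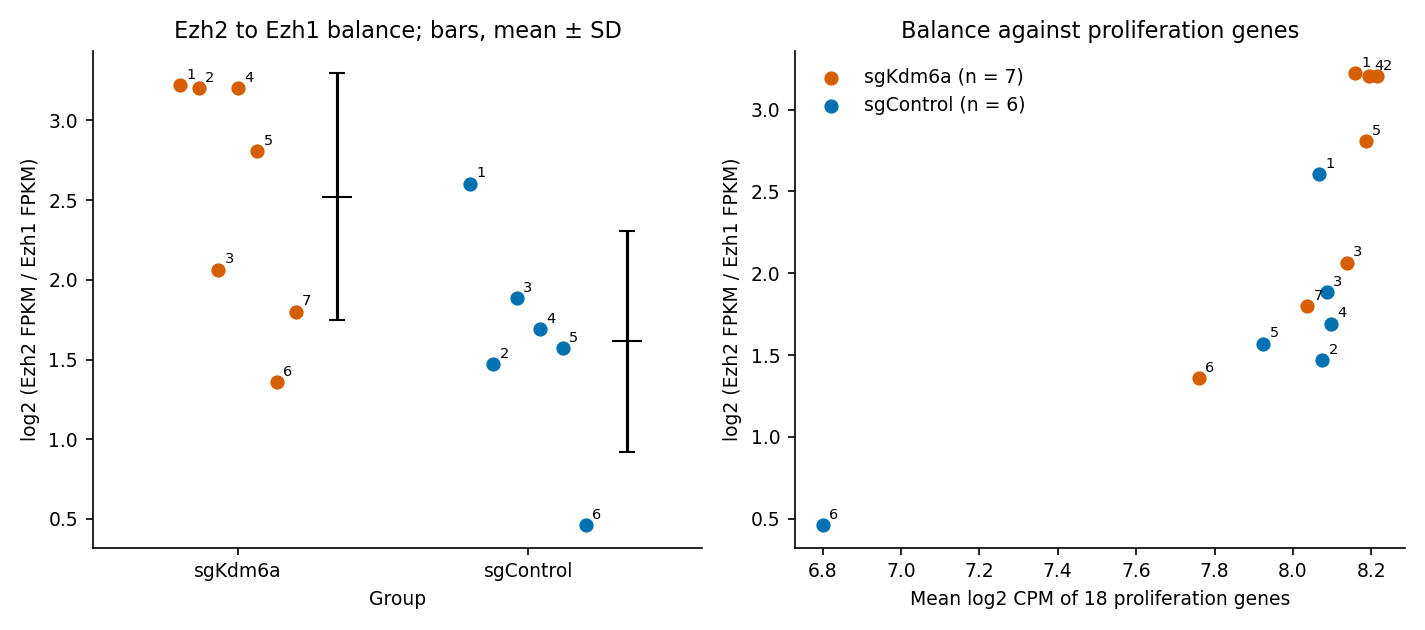
Left, log2 ratio of Ezh2 FPKM to Ezh1 FPKM in the sgKdm6a and sgControl tumours, 1 numbered point per replicate, with the group mean ± SD beside it (2.52 ± 0.77 and 1.61 ± 0.69). Right, the same ratio against the mean log2 CPM of 18 proliferation genes, where sgControl replicate 6 lies lowest on both axes, at 0.46 and 6.80.

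Of the core subunits, Eed (ENSMUSG00000030619, chromosome 7, 89954654 to 89980983), which binds methylated lysine 27 and stimulates the enzyme, was at 50.02 to 75.9 CPM in sgKdm6a (median 57.2) and 54.6 to 72.1 CPM in sgControl tumours (median 63.3). It was the steadiest of the 10, with its highest tumour at 1.52 times its lowest. Its SD within groups was 0.19 on the log2 scale, and only 3.08% of the genes tested had a smaller one. Eed had a log2 fold change of -0.06 (SE 0.13, 95% interval -0.35 to 0.22, edgeR adjusted p = 0.920).

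Suz12 (ENSMUSG00000017548, chromosome 11, 79993106 to 80034123), the scaffold on which the complex is assembled, was at 203 to 317 CPM in sgKdm6a (median 249) and 117 to 332 CPM in sgControl tumours (median 224). All sgKdm6a tumours lay inside the sgControl range, whose ends were set by sgControl replicates 6 and 2. Suz12 averaged 49.2 ± 7.63 FPKM in sgKdm6a (SD, n = 7) and 42.7 ± 14.002 FPKM in sgControl tumours (SD, n = 6), a log2 fold change of 0.21 (SE 0.20, 95% interval -0.23 to 0.65, edgeR adjusted p = 0.787). Without sgControl replicate 6 it was 0.08. Within the higher range of title numbers, which holds that library, it was 0.57 (edgeR adjusted p = 0.444, below 0.05 only before adjustment).

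Rbbp4 (ENSMUSG00000057236, chromosome 4, 129307100 to 129335370) was at 426 to 808 CPM in sgKdm6a (median 531) and 312 to 727 CPM in sgControl tumours (median 512). The groups overlapped except for sgKdm6a replicates 4 and 5, which lay above, and sgControl replicates 2 and 6, which lay below. The fitted log2 fold change was 0.18 (SE 0.24, 95% interval -0.33 to 0.68, edgeR adjusted p = 0.854). Leaving out sgControl replicate 6 gave 0.06. Per length and tumour, Eed amounted to 0.308 ± 0.0688 of Suz12 in sgKdm6a (SD, n = 7) and 0.403 ± 0.153 in sgControl tumours (SD, n = 6), or 0.355 ± 0.110 in the 5 sgControl tumours other than replicate 6. The sum of Ezh2 and Ezh1 amounted to 0.633 ± 0.142 of Suz12 in sgKdm6a and 0.700 ± 0.0704 in sgControl tumours. In the 5 sgControl tumours other than replicate 6 it was 0.709 ± 0.0742. For this sum, 4 of the 7 sgKdm6a tumours lay below every sgControl tumour and 1 lay above. The groups overlapped in both ratios of FPKM, and neither was tested.

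The PRC2.1 subunits are Polycomb-like proteins that bind DNA rich in CpG and methylated lysine 36 of histone H3. Mtf2 (ENSMUSG00000029267, chromosome 5, 108065674 to 108109004) was at 65.3 to 109 CPM in sgKdm6a (median 85.2) and 43.0 to 109 CPM in sgControl tumours (median 73.4), again with sgControl replicate 6 at the bottom. Its log2 fold change was 0.17 (SE 0.20, 95% interval -0.25 to 0.59, edgeR adjusted p = 0.823), and 0.05 without that library. It was 0.31 without sgControl replicate 1, 0.46 within the higher range of title numbers and 0.36 with the Y-linked term. The gene overlaps the 3′ end of Tmed5 on the opposite strand over 2639 bases, and the libraries do not keep strand, so part of its 20161 reads may come from Tmed5, which had 10639.

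Phf1 (ENSMUSG00000024193, chromosome 17, 26933127 to 26937890) was at 25.0 to 44.3 CPM in sgKdm6a (median 30.5) and 24.4 to 54.1 CPM in sgControl tumours (median 36.8), so that every sgKdm6a tumour lay within the sgControl range. The Phf1 log2 fold change was -0.19 (SE 0.20, 95% interval -0.62 to 0.23, edgeR adjusted p = 0.796). It was -0.06 without sgControl replicate 2 and -0.03 within the lower range of title numbers. Phf19 (ENSMUSG00000026873, chromosome 2, 34893757 to 34914026) was at 29.0 to 76.2 CPM in sgKdm6a (median 58.3) and 26.9 to 82.8 CPM in sgControl tumours (median 52.0). A single library lay far below the rest in each group, sgKdm6a replicate 4 and sgControl replicate 6. For Phf19 the log2 fold change was 0.06 (SE 0.26, 95% interval -0.50 to 0.62, edgeR adjusted p = 0.968), and -0.09 without sgControl replicate 6.

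Of the PRC2.2 subunits, Jarid2 (ENSMUSG00000038518, chromosome 13, 44729474 to 44921643), which binds ubiquitylated histone H2A and activates the enzyme, was at 28.4 to 75.0 CPM in sgKdm6a (median 64.1) and 24.4 to 94.7 CPM in sgControl tumours (median 54.0). Low values were found in sgKdm6a replicate 1 and sgControl replicate 2, and the highest was sgControl replicate 3. The log2 fold change of Jarid2 was 0.08 (SE 0.28, 95% interval -0.52 to 0.68, edgeR adjusted p = 0.958). Aebp2 (ENSMUSG00000030232, chromosome 6, 140622663 to 140678472), a zinc finger protein that stabilises the complex on chromatin, was at 62.3 to 226 CPM in sgKdm6a (median 142) and 80.6 to 184 CPM in sgControl tumours (median 156). The sgKdm6a tumours spread to both sides of the sgControl range, with replicate 1 below it and replicates 2 and 4 above it. Its log2 fold change was 0.00 (SE 0.27, 95% interval -0.58 to 0.58, edgeR adjusted p = 0.999).

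**Figure D3:**
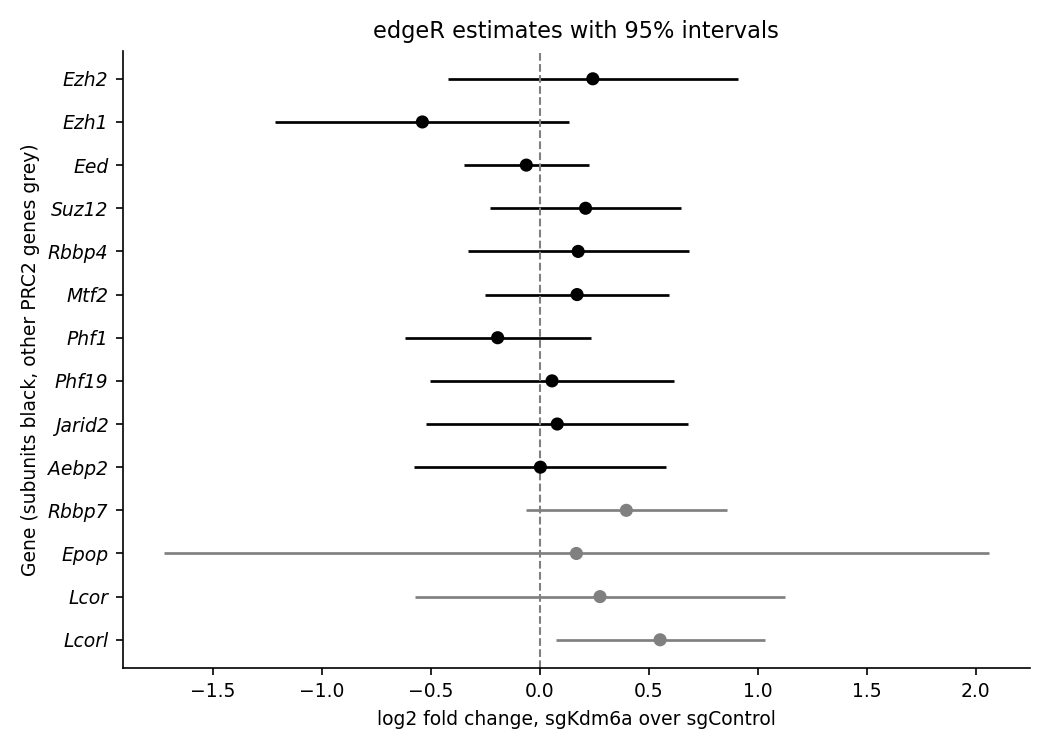
edgeR log2 fold changes of sgKdm6a over sgControl tumours with 95% intervals, subunits in black and other PRC2 genes in grey. All 10 subunit intervals include 0, from Ezh1 at -0.54 to Ezh2 at 0.24, and the widest interval is that of Epop.

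Accessory subunit usage varied from tumour to tumour. As shares of the summed FPKM of the 5 accessory genes, Mtf2 made up 24.5 ± 4.57% in sgKdm6a (SD, n = 7) and 21.7 ± 5.56% in sgControl tumours (SD, n = 6). Phf1 made up 22.4 ± 3.51% in sgKdm6a and 25.7 ± 5.38% in sgControl tumours, and Phf19 made up 19.1 ± 5.40% and 18.005 ± 4.22% in sgKdm6a and sgControl tumours. Jarid2 held 9.85 ± 2.37% in sgKdm6a and 9.87 ± 4.94% in sgControl tumours, and Aebp2 held 24.2 ± 8.04% in sgKdm6a and 24.7 ± 5.22% in sgControl tumours. Among these 5 genes, the largest share belonged to Aebp2 in 3 sgKdm6a and 2 sgControl tumours and to Mtf2 in 3 sgKdm6a and 2 sgControl tumours. Phf1 held it in 1 sgKdm6a and 2 sgControl tumours. Other PRC2.1 genes described below, among them Epop, were not counted in these shares. In sgKdm6a replicate 3 Epop was at 23.0 FPKM, above Mtf2 at 17.7 FPKM, the largest of the 5 there.

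The PRC2.1 genes together held 66.0 ± 8.95% of accessory FPKM in sgKdm6a and 65.4 ± 4.91% in sgControl tumours. The log2 ratio of PRC2.1 to PRC2.2 was 0.99 ± 0.61 in sgKdm6a (SD, n = 7) and 0.93 ± 0.32 in sgControl tumours (SD, n = 6). That difference of 0.06 is smaller than either SD and was not tested. It was -0.13 without sgKdm6a replicate 1, -0.01 without sgControl replicate 6 and 0.22 without sgKdm6a replicate 4, and within the lower range of title numbers it was 0.35. With Epop counted in PRC2.1 the difference was 0.09. Replicates 1 and 4 of sgKdm6a held the extremes, with PRC2.1 shares of 81.6% in replicate 1, where Aebp2 and Jarid2 were low, and 51.0% in replicate 4, where Phf19 was low and Aebp2 high. All sgControl tumours lay between 59.6% and 72.9%.

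**Figure D4:**
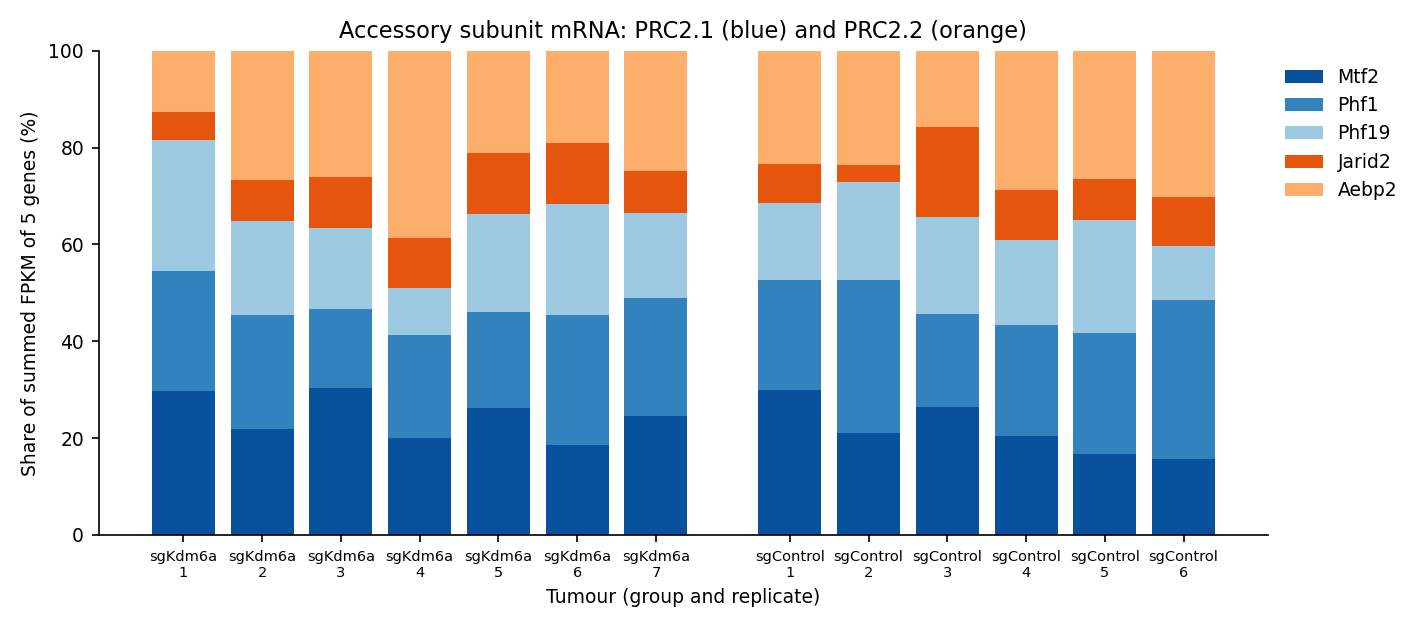
Share of each accessory subunit in the summed FPKM of the 5 accessory genes (%), 1 bar per tumour, sgKdm6a left of sgControl, with PRC2.1 genes in blue and PRC2.2 genes in orange. PRC2.1 ranges from 51.0% in sgKdm6a replicate 4 to 81.6% in sgKdm6a replicate 1.

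The balance inside each form varied among tumours as well. Within PRC2.2, Jarid2 amounted to 0.267 to 0.651 of the Aebp2 FPKM in sgKdm6a and to 0.152 to 1.19 in sgControl tumours. Within PRC2.1, Phf1 amounted to 0.913 to 2.18 of the Phf19 FPKM in sgKdm6a and to 0.962 to 2.96 in sgControl tumours. The upper end was sgControl replicate 3 for the first ratio and sgControl replicate 6 for the second. Relative to Suz12, the accessory sum was 1.17 ± 0.169 in sgKdm6a (SD, n = 7) and 1.43 ± 0.411 in sgControl tumours (SD, n = 6), a difference within the SD of the sgControl tumours. The sgControl mean was 1.31 ± 0.316 (SD, n = 5) without sgControl replicate 6.

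Tumours of a shared title number could still differ widely in these subunits. In the sgKdm6a pair of replicates 1 and 2, Aebp2 was at 62.3 and 205 CPM (3.29-fold apart) and Jarid2 at 28.4 and 64.8 CPM (2.28-fold). In the pair of replicates 4 and 5, Aebp2 was at 226 and 119 CPM (1.89-fold) and Phf19 at 29.0 and 58.3 CPM (2.01-fold). For Aebp2 the median difference in such pairs was 0.92 on the log2 scale (3 pairs), against 0.59 in the 18 other pairs of sgKdm6a tumours. For Ezh1 it was 0.40 in pairs of a shared number and 0.78 in the others. So few pairs allow a description only.

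Across tumours, some subunits followed Ezh2 and others did not. Suz12 had the highest correlation of log2 CPM with Ezh2 among the other subunits (r = 0.90 over 13 tumours, 0.79 without sgControl replicate 6), followed by Mtf2 (0.86, and 0.72 without it). For Phf19 r was 0.47, and 0.03 without that library. Ezh1 was not among the followers (r = 0.09), and Rbbp4 ran against Ezh1 (r = -0.64, and -0.72 without sgControl replicate 6). All points of such a correlation share a library and its scaling, and no p is given.

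**Figure D5:**
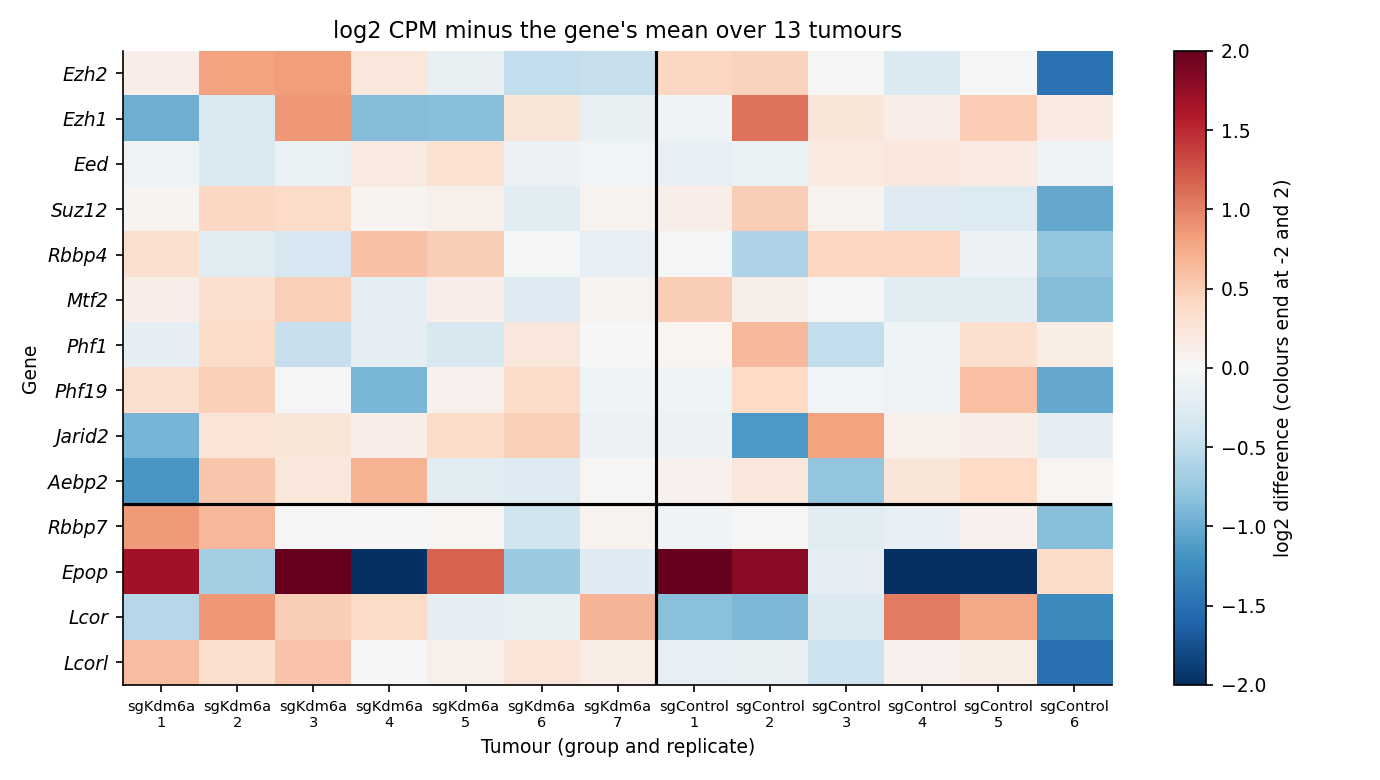
log2 CPM of each gene minus its mean over the 13 tumours, sgKdm6a tumours left of the vertical line and sgControl tumours right of it, with the 10 subunits above the horizontal line and 4 other PRC2 genes under it. sgControl replicate 6 is the lowest tumour for 5 of the 10 subunits, and Epop exceeds the colour scale in several tumours.

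Among 14035 tested genes, those most like Ezh2 over the 13 tumours by Pearson's r of log2 CPM were Plxna3 (0.96, and 0.95 without sgControl replicate 6), Hjurp (0.93, 0.86), Mat2a (0.92, 0.91), Cep135 (0.92, 0.82) and Nsd2 (0.92, 0.82). Plxna3 is a semaphorin receptor, Hjurp loads the centromeric histone, Cep135 is a centriole protein, Mat2a makes the methyl donor S-adenosylmethionine and Nsd2 is a histone methyltransferase for lysine 36. Of these, only Plxna3 and Mat2a were among the first 5 without sgControl replicate 6. The genes most like Ezh1 were Kif19a (0.87, 0.89), Tssk4 (0.86, 0.86), Ankrd27 (0.85, 0.87), Zfp3 (0.84, 0.87) and Tbc1d23 (0.83, 0.88), of which Kif19a is a kinesin motor and Zfp3 a zinc finger protein. None of these 5 was among the first 5 without sgControl replicate 6, where they ranked between 6 and 10.

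Of 5 other genes of the complex, 4 were tested, and 1, Lcorl, was higher in sgKdm6a tumours at the unadjusted threshold, as were 3.18% of all genes tested. Lcorl, which encodes the PRC2.1 partner PALI2, was at 105 to 159 CPM in sgKdm6a (median 124) and 36.9 to 115 CPM in sgControl tumours (median 93.2), and 4 of the 7 sgKdm6a tumours lay above every sgControl tumour. The log2 fold change of Lcorl was 0.55 (SE 0.22, edgeR adjusted p = 0.433). Its lowest tumour, far from the others, was sgControl replicate 6, and without that library the value was 0.39 (SE 0.15, edgeR adjusted p = 0.859), still past the unadjusted threshold. Lcorl overlaps Ncapg, a condensin gene on the opposite strand with 23862 reads, over 3366 bases. Lcor, its paralogue, had a log2 fold change of 0.28 (SE 0.39).

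Rbbp7, the X-linked relative of Rbbp4, was at 326 to 767 CPM in sgKdm6a (median 441) and 237 to 451 CPM in sgControl tumours (median 393). The fitted difference was 0.40 on the log2 scale (SE 0.21), and its edgeR p was above 0.05 before adjustment. It was 0.29 (SE 0.20) without sgControl replicate 6, the low tumour here too. Epop, the PRC2.1 subunit that binds elongin B and C, was at 1.82 to 57.4 CPM in sgKdm6a (median 8.37) and 1.34 to 43.1 CPM in sgControl tumours (median 11.0). High and low tumours were found in both groups, 42.8-fold apart at the extremes, and the log2 fold change was 0.17 (SE 0.88). Ezhip, an inhibitor of EZH2, had at most 3 counts in any tumour and was not tested.

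Other complexes act beside PRC2 on the same chromatin. Of 22 genes of PRC1, which compacts chromatin and ubiquitylates histone H2A, 1 was higher and 0 lower in sgKdm6a tumours at the unadjusted threshold, with a median log2 fold change of 0.07. Over all genes tested the shares were 3.18% higher and 6.97% lower. That gene was L3mbtl2, a subunit of a variant PRC1, at 49.8 to 90.2 CPM in sgKdm6a and 43.1 to 64.8 CPM in sgControl tumours (log2 fold change 0.35, SE 0.16, edgeR adjusted p = 0.488). Its log2 fold change was 0.29 without sgControl replicate 6, where 0 of the 22 passed. The next by p were Pcgf3, Phc3 and Bcor, with log2 fold changes of 0.22, 0.30 and 0.22. Of 6 genes of PR-DUB, the complex that removes ubiquitin from histone H2A, 0 passed in either direction, set against the same shares, and the median was 0.21. Asxl2, Asxl3 and Bap1 had log2 fold changes of 0.37, 0.61 and 0.31, and Mbd6 had -0.28. The demethylase Kdm6b had a log2 fold change of -0.26 (SE 0.25). Uty, the Y-linked relative of Kdm6a, was at 44.9 CPM in sgKdm6a replicate 3 and at 0 or 1 count in the other 6, against 0 to 33.4 CPM in sgControl tumours. Of the 3 demethylase genes and of the 4 Y-linked genes, 0 passed the unadjusted threshold in either direction. The Y-linked genes had an SD within groups of 3.28 to 3.82 on the log2 scale, so their count does not show equal levels.

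Of the 18 proliferation genes, 1 was higher in sgKdm6a tumours at the unadjusted threshold (3.18% of all genes were), 16 had a positive log2 fold change and the median was 0.23. Their summed level was 5305 to 7460 CPM in sgKdm6a and 2545 to 7020 CPM in sgControl tumours, with the lower end set by sgControl replicate 6 and the other sgControl tumours at 6326 CPM or above. Without that library 0 of the 18 passed and the median was 0.10.

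Most markers of other lung cell types were lower in sgKdm6a tumours at the unadjusted threshold, against 6.97% of all genes tested, and sgControl replicate 6 had the highest sum of all 5 tissue lists. Their part in the results on the subunits was not tested beyond the fits given with the tissue term. Alveolar type 2 markers summed to 78.6 to 447 CPM in sgKdm6a and 268 to 8944 CPM in sgControl tumours, and 5 of 6 were lower in sgKdm6a tumours at the unadjusted edgeR threshold of 0.05. For alveolar type 1 markers the sums were 27.6 to 116 CPM in sgKdm6a and 95.1 to 1890 CPM in sgControl tumours, with 4 of 5 lower. Endothelial markers reached 31.1 to 113 CPM in sgKdm6a and 82.9 to 1252 CPM in sgControl tumours, with 5 of 6 lower. Without sgControl replicate 6, the upper ends of these 3 ranges in sgControl tumours were 1731, 206 and 147 CPM. Macrophage markers summed to 137 to 484 CPM in sgKdm6a and 302 to 14263 CPM in sgControl tumours, with 7 of 7 lower, and fibroblast markers to 158 to 952 CPM in sgKdm6a and 219 to 6815 CPM in sgControl tumours, with 5 of 7 lower. Their upper ends in the other sgControl tumours were 1447 and 789 CPM. Without sgControl replicate 6, the counts lower were 2 of 6 (alveolar type 2), 2 of 5 (alveolar type 1), 4 of 6 (endothelial), 1 of 7 (macrophage) and 2 of 7 (fibroblast), against 2.79% of all genes. T and NK cell markers (1.09 to 13.8 CPM in sgKdm6a, 4.38 to 40.9 CPM in sgControl tumours) and B cell markers (1.22 to 8.65 CPM in sgKdm6a, 2.13 to 9.78 CPM in sgControl tumours) were scarce, with 0 of 4 and 0 of 3 tested markers past that threshold. No marker was at or under the detection limit in all tumours.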

How the data were processed

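RNA of 13 tumours was sequenced as read pairs from libraries that do not keep strand, per the labels' protocols. STAR, DESeq2 and the build mm10 are listed in the submitters' processing notes, while the counting program and annotation are not. The authors deposited raw gene counts and FPKM. The deposited FPKM equal count over gene length and 1 constant per tumour, 0.883 to 1.12 times the total count. Gene names turned into dates (15) were restored by identifier.

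Tumours were grouped by their genotype label. Replicate numbers follow accession order and pair no tumours. Counts were tested across all genes with edgeR 4.0.16 in R 4.3.3 (filterByExpr, TMM, robust quasi-likelihood F test, no covariate, Benjamini-Hochberg adjustment, threshold 0.05). The SE is the log2 fold change divided by the square root of F. Log2 CPM used a prior count of 2. Ratios and shares used the deposited FPKM. Single values were compared by exact permutation, two-sided, and correlations with 100000 resamples, both in scipy 1.17.1. DESeq2 1.42.0 was an alternative, and others are given in the closing section. The fits within each range of title numbers, the proliferation term, and the gene lists and ratios without sgControl replicate 6 were added after the data were seen. The scripts were tested on simulated data. Of simulated log2 changes of 1, 2 and 4, the edgeR test recovered 10.3%, 56.9% and 93.3%. Most changes of 1 on the log2 scale would thus go uncalled with these numbers of tumours.

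The subunits and the gene lists (other PRC2, PRC1, PR-DUB, demethylases, proliferation, cell type markers, Y-linked) were chosen with earlier results of these data known. Named were all subunits and other PRC2 genes, the 3 demethylase genes, up to 4 genes of smallest p in PRC1 and PR-DUB, and the 5 genes most like Ezh2 and Ezh1 with a mean of at least 1 CPM and a symbol other than Gm-number, Rik or LOC. Ezhip is listed in the table as AU022751. Coordinates of promoters and their sequences are from RefSeq.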

Additional observations from a re-analysis of the deposited data

Results flagged for a closer look

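In 36 groups of levels within a genotype, the tumour farthest from the others was tested by Dixon's criterion, which by chance marks about 1 group in 20. Marked were 5 groups, and Uty was not counted among them. Uty was at 5.49 log2 CPM in sgKdm6a replicate 3 and at -2.66 or less in the rest of that group. It was at -3.27 log2 CPM in sgControl replicate 4 and at 3.94 to 5.07 in the other sgControl tumours. Phf19 was at 4.87 log2 CPM in sgKdm6a replicate 4, while the other sgKdm6a tumours lay between 5.70 and 6.25. Jarid2 was at 4.83 log2 CPM in sgKdm6a replicate 1, against 5.64 to 6.23 in the rest of that group. Aebp2 was at 6.33 log2 CPM in sgControl replicate 3, with the other sgControl tumours at 7.17 to 7.53. sgControl replicate 6 was the low tumour for Rbbp7 (7.89 log2 CPM, others 8.52 to 8.82) and for Lcorl (5.21 log2 CPM, others 6.27 to 6.85).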

How the results depend on the processing

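No subunit passed an adjusted p of 0.05 under any of the 23 alternatives, the lowest adjusted p being 0.444 (Suz12) and 0.484 (Ezh1). Ezh1, Eed and Phf1 kept a negative log2 fold change in all 23, Ezh1 between -1.10 and -0.10. The others changed sign under some, and for these reversals the cause was not tested. With the tissue term the values were -0.17 (Ezh2), -0.091 (Suz12), -0.020 (Rbbp4), -0.11 (Mtf2), -0.26 (Phf19), -0.18 (Jarid2) and -0.046 (Aebp2). The proliferation term gave -0.047 (Ezh2), -0.064 (Phf19) and -0.030 (Aebp2), and the Y-linked term -0.17 (Rbbp4). Fits within the higher range of title numbers gave -0.025 (Phf19) and -0.10 (Aebp2), and within the lower range -0.27 (Jarid2). Aebp2, at 0.00 in the first place, also turned with DESeq2 (-0.0041), RLE factors (-0.0041), no filter (-0.0012), counts summed by title number (-0.023) and the number range as a term (-0.048). Leaving out single tumours gave -0.13 to 0.14 for Aebp2, -0.071 to 0.30 for Jarid2 and -0.087 to 0.20 for Phf19. At an unadjusted p under 0.05, 1 subunit was higher within the higher range (Suz12), and 1 lower with the tissue term (Ezh1), while leaving out single tumours gave 0 to 1 lower (Ezh1, without sgKdm6a replicate 3). The Ezh2 to Ezh1 difference was 0.68 to 1.11 when single tumours were left out, 0.85 by title number, and 1.23 and 1.01 within the lower and the higher range, of which the lower range is too small to pass. Over all genes, DESeq2 called 65 where edgeR called 0, and the genes lower at an unadjusted p under 0.05 numbered 469 without sgControl replicate 6, against 1156. With no filter the unadjusted counts were 1175 higher and 2087 lower, since 33477 genes were tested. Summed by title number 574 were lower, within the lower range 386, with the tissue term 627, with the Y-linked term 417 and with the proliferation term 393. No paired analysis was possible because the labels give no replicate numbers shared between the groups.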
